A study of Mus musculus with 24 samples.

Results

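The genes of the mouse mitochondrial genome were described in the brains of 24 mice. Members were all rows of the deposited gene table that lie on the chromosome named MT, which gave 37 of 54532 genes: 13 protein-coding genes, 2 ribosomal RNA (rRNA) genes and 22 transfer RNA (tRNA) genes. The animals were adult male wild-type C57Bl6 mice in 4 groups of 6. Vehicle mice received saline for 2 weeks through an osmotic minipump, and angiotensin II mice received angiotensin II at 0.7 mg/kg per day, which raises blood pressure. The vehicle + AEC and angiotensin II + AEC groups had the same infusions and also received human amnion epithelial cells (AEC), which were injected into a vein. RNA came from brain hemispheres, with all cell types together, so that fewer cells of a type and less RNA per cell cannot be told apart. Markers of neurons, astrocytes, oligodendrocytes and microglia were above 0 in every mouse.

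The mitochondrial genome is a small circle that is transcribed from both strands into long precursor RNAs. Enzymes cut the tRNAs out of these precursors, which frees the mRNAs and rRNAs between them. The 13 proteins are subunits of respiratory complexes I, III and IV and of complex V, the ATP synthase, while the rRNAs and tRNAs serve the organelle's own ribosomes. All polymerases and processing enzymes come from nuclear genes. Stretches of mitochondrial DNA have also been copied into the nuclear chromosomes over evolution, and reads from such stretches can match both places.

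Levels are given as FPKM, the number of sequenced fragments on a gene scaled for its length and for the size of the library. Each value times the gene length was a whole multiple of 1 step per mouse in 100% of values, within a tolerance of 0.001, so that fragment counts were recovered. The libraries held 16536449 to 25308700 fragments on genes. Coordinates are those of the deposited table, in build GRCm38 (mm10), and all 37 members had the same coordinates and strand in the GENCODE M21 annotation, where each is 1 transcript as long as its gene, without introns. The minus strand holds 9 members, mt-Nd6 and 8 tRNAs, and the plus strand holds 28. How reads that match more than 1 place were treated, and whether counting used the strand, were not given in the sources used here. Without strand, reads of a minus-strand gene and of the plus-strand precursor across it cannot be told apart.

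The table lists nuclear genes on chromosome 1 that repeat mitochondrial genes, and these sequences are shown because they bear on which levels can be read as mitochondrial. The first 60 bases of mt-Co2, which encodes a core subunit of complex IV, lie at MT:7013-7072 on the plus strand, and the same bases lie at chr1:24615506-24615565 on the minus strand in Gm28661. The start codon is in capitals.
mt-Co2: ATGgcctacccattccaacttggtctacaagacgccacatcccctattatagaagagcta
Gm28661: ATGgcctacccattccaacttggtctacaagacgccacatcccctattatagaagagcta
Over the 681 bases that could be aligned, mt-Co2 and Gm28661 had 0 substitutions. The same was found for mt-Atp6 and Gm10925 over 678 bases, mt-Co3 and Gm28437 over 783 bases, mt-Nd4l and Gm10222 over 294 bases, and the first part of mt-Nd4 and Gm28439 over 876 bases. For mt-Nd3, a subunit of complex I, 1 of 345 bases differed from Gm28438, the substitution T3C counted from the first base of the gene. It is in capitals in the first 33 bases of the gene, at MT:9459-9491, and of its copy, at chr1:24613087-24613119 on the minus strand.
mt-Nd3: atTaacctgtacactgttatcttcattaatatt
Gm28438: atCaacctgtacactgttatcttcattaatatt

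The copies also keep the mitochondrial order and spacing. From the first base of mt-Co2 to that of mt-Atp6 are 914 bases on MT, and the same 914 separate the copies on chromosome 1. The next steps are 680 bases to mt-Co3 and 852 bases to mt-Nd3 in both places. The step to mt-Nd4l is 418 bases on MT and 419 on chromosome 1, and the last one, to mt-Nd4, is 290 in both. The part of mt-Co1 that Gm29216 repeats aligned over 492 bases with 4 substitutions, A1059G, A1060G, C1062A and A1066T, and 2 gap bases.

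To put a number on the overlap, each member was cut into all windows of 100 bases, and windows found unchanged in a nuclear transcript of GENCODE M21 were counted. The share was 99.5% for mt-Co2, 99.5% for mt-Atp6, 99.9% for mt-Co3, 97.6% for mt-Nd3 and 98.5% for mt-Nd4l. It was 60.8% for mt-Nd4, 30.8% for mt-Co1 and 3.19% for mt-Nd2, which shares them with Gm13339. It was 0% for mt-Nd1, mt-Nd5, mt-Nd6, mt-Cytb, mt-Atp8, mt-Rnr1 and mt-Rnr2. The tRNAs, of 59 to 75 bases, are shorter than the window.

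The mitochondrial genes held 4.79% to 6.85% of all fragments and 14.1% to 18.1% of all FPKM. The 7 genes with the highest mean FPKM of the whole table were all members. Among the subunits of complex I, mt-Nd1 stood at 7999 ± 1482 FPKM (SD, n = 24), mt-Nd2 at 5330 ± 885, mt-Nd4 at 3896 ± 978, mt-Nd6 at 3274 ± 723 and mt-Nd5 at 1533 ± 255. Complex III has 1 mitochondrial subunit, cytochrome b, and its gene mt-Cytb was at 7998 ± 1338 FPKM. Of complex IV, mt-Co1, which encodes the catalytic subunit, was the highest of all genes at 9502 ± 365 FPKM. The rRNA of the small ribosomal subunit, mt-Rnr1, was at 3599 ± 906 FPKM and that of the large subunit, mt-Rnr2, at 2725 ± 577. All of these are levels in RNA selected for poly(A) tails, and the part of that selection in them was not tested.

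The remaining protein genes were far lower. mt-Co2 was at 218 ± 58.5 FPKM and mt-Co3, also of complex IV, at 76.0 ± 17.0 FPKM. mt-Atp6, a membrane subunit of the ATP synthase, was at 127 ± 73.6 FPKM and mt-Atp8, its partner in that enzyme, at 7.29 ± 8.38. In complex I, mt-Nd3 was at 127 ± 27.4 FPKM and mt-Nd4l at 32.1 ± 12.2. The 5 protein genes with more than 90% of their windows in a nuclear transcript thus had mean levels of 32.1 to 218 FPKM, and 7 of the other 8 had means of 1533 to 9502. The exception was mt-Atp8, which is low although no annotated nuclear transcript shares a window with it. On the chromosome 1 spacing given above, its place lies between Gm28661 and Gm10925. Whether reads that match both places were dropped, or divided, was not tested.

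**Figure D1:**
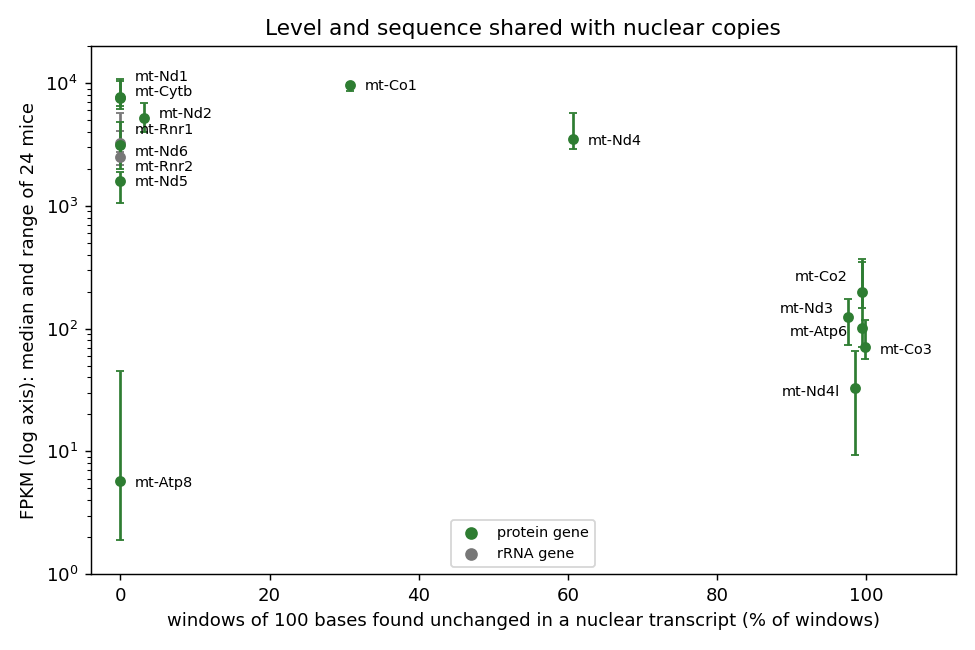
Share of each gene's windows of 100 bases that occur unchanged in a nuclear transcript (horizontal axis, percent) and its level (vertical axis, FPKM on a log axis), with the median as a point and the range of 24 mice as a bar, for the 13 protein genes in green and the 2 rRNA genes in gray. The 5 genes at 97.6% to 99.9% lie below every gene at 0% to 60.8% other than mt-Atp8.

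Members that are known to be carried on 1 mRNA had unlike levels. mt-Atp8 and mt-Atp6 are such a pair, and their reading frames overlap by 43 bases at MT:7927-7969. The overlap is shown with the start codon of mt-Atp6 in capitals.
mt-Atp8 and mt-Atp6: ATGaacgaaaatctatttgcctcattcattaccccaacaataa
mt-Atp8, which shares no window with an annotated nuclear transcript, was at 7.29 FPKM and mt-Atp6, with 99.5% of windows shared, at 127. The nuclear sequence between Gm28661 and Gm10925 was not read, so whether mt-Atp8 is repeated there was not tested. mt-Nd4l and mt-Nd4 are another such pair and overlap by 7 bases at MT:10167-10173. mt-Nd4 was at 3896 FPKM and mt-Nd4l at 32.1. In the 24 mice mt-Nd4l had 59 to 461 fragments, while mt-Nd4 had 75438 to 184883.

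Set against the members they repeat, the 7 copies on chromosome 1 had median ratios from 0.00613 to 1.06. Gm28661 was at 223 ± 64.7 FPKM, and its ratio to mt-Co2 within a mouse ran from 0.505 to 1.52 with a median of 1.06. Gm10925 was at 103 ± 33.8 FPKM, and its ratio to mt-Atp6 ran from 0.227 to 1.96 with a median of 0.932. Gm28437 was at 44.9 ± 9.23 FPKM with a median ratio to mt-Co3 of 0.594, and Gm10222 at 17.2 ± 5.40 with a median ratio to mt-Nd4l of 0.546. For mt-Nd3, whose copy differs by 1 base, Gm28438 was at 16.6 ± 5.01 FPKM and the median ratio was 0.121. Against mt-Nd4, Gm28439 at 20.2 ± 3.60 FPKM had a median ratio of 0.00613, and against mt-Co1, Gm29216 at 74.1 ± 35.2 FPKM one of 0.00614. Copies on chromosome 2 were lower, with Gm13339 at 1.59 ± 0.871, Gm13340 at 2.20 ± 0.50 and Gm13341 at 1.94 ± 0.753 FPKM. Member and copy are identical over nearly their whole length in 4 of these pairs, so the level of neither can be taken as certain. The same holds for mt-Nd3 and Gm28438, whose 1 difference lies at base 3. It also holds for the level of Gm28439, which is identical to mt-Nd4 over all its 876 bases.

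The order of the higher genes held in some places in every mouse and not in others. mt-Cytb was above mt-Nd2, mt-Nd2 above mt-Nd4, and mt-Rnr2 above mt-Nd5 in 24 of 24 mice. mt-Nd1 was above mt-Cytb in 15 of 24, with a ratio of 0.937 to 1.05, so that these neighbors in the order did not differ beyond their spread. mt-Co1 was above mt-Nd1 in 18 mice and below it in 6. Those 6 are a set of libraries that stand apart, as given further on.

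The 22 tRNAs took 0.212% to 0.332% of the mitochondrial fragments. Libraries were made after selection of RNA with poly(A) tails, and mature tRNAs are known to carry none that are long. Their FPKM also rests on few fragments, with a median under 50 in 15 of 22. The 4 highest were all on the minus strand: mt-Tp at 1148 ± 264 FPKM, mt-Tc at 339 ± 175, mt-Tn at 219 ± 107 and mt-Te at 203 ± 40.8, which carry proline, cysteine, asparagine and glutamate. The other minus-strand tRNAs were mt-Ty at 64.4 ± 19.6, mt-Tq at 6.74 ± 3.08, mt-Ta at 4.19 ± 2.16 and mt-Ts1 at 0.0290 ± 0.142 FPKM. The median over the 8 genes of the minus strand was 134 FPKM, beside 8.64 FPKM for the 14 tRNAs on the plus strand. Sequence shared with nuclear copies was not read for tRNAs, and how fragments that reach into a neighboring gene were counted was not given. The part of either in these levels was not tested.

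On the plus strand the leucine tRNA mt-Tl1, which lies between mt-Rnr2 and mt-Nd1, was highest at 88.3 ± 20.3 FPKM. It was followed by mt-Tw at 50.8 ± 10.6, mt-Tl2 at 28.1 ± 18.5, mt-Tm at 23.9 ± 8.36 and mt-Tg at 10.1 ± 4.39 FPKM. The means of mt-Ti, mt-Ts2, mt-Th, mt-Tr, mt-Tt and mt-Tv lay between 0.979 and 9.39 FPKM. mt-Tk was at 0.164 ± 0.461 FPKM, mt-Td at 0.125 ± 0.364, and mt-Tf was listed at 0 in all 24 mice. With 3 fragments as the limit that a count of 0 allows, mt-Tf could reach 1.73 to 2.64 FPKM, depending on the library. This limit covers counting error only.

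The sequences of the 4 highest tRNA genes and of mt-Tf, which had no fragment, are shown from the GENCODE M21 transcripts, with the anticodon in capitals. It was found by its letters in a loop of 7 bases closed by a stem. They lie at MT:15356-15422, MT:5192-5257, MT:5089-5159, MT:14071-14139 and MT:1-68, the last on the plus strand and the others on the minus strand.
mt-Tp: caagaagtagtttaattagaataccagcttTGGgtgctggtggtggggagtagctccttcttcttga
mt-Tc: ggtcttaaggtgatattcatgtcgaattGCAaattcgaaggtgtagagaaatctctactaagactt
mt-Tn: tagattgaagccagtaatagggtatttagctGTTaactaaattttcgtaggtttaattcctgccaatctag
mt-Te: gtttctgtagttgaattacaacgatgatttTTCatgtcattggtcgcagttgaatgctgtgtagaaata
mt-Tf: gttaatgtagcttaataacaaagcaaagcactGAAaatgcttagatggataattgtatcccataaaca

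**Figure D2:**
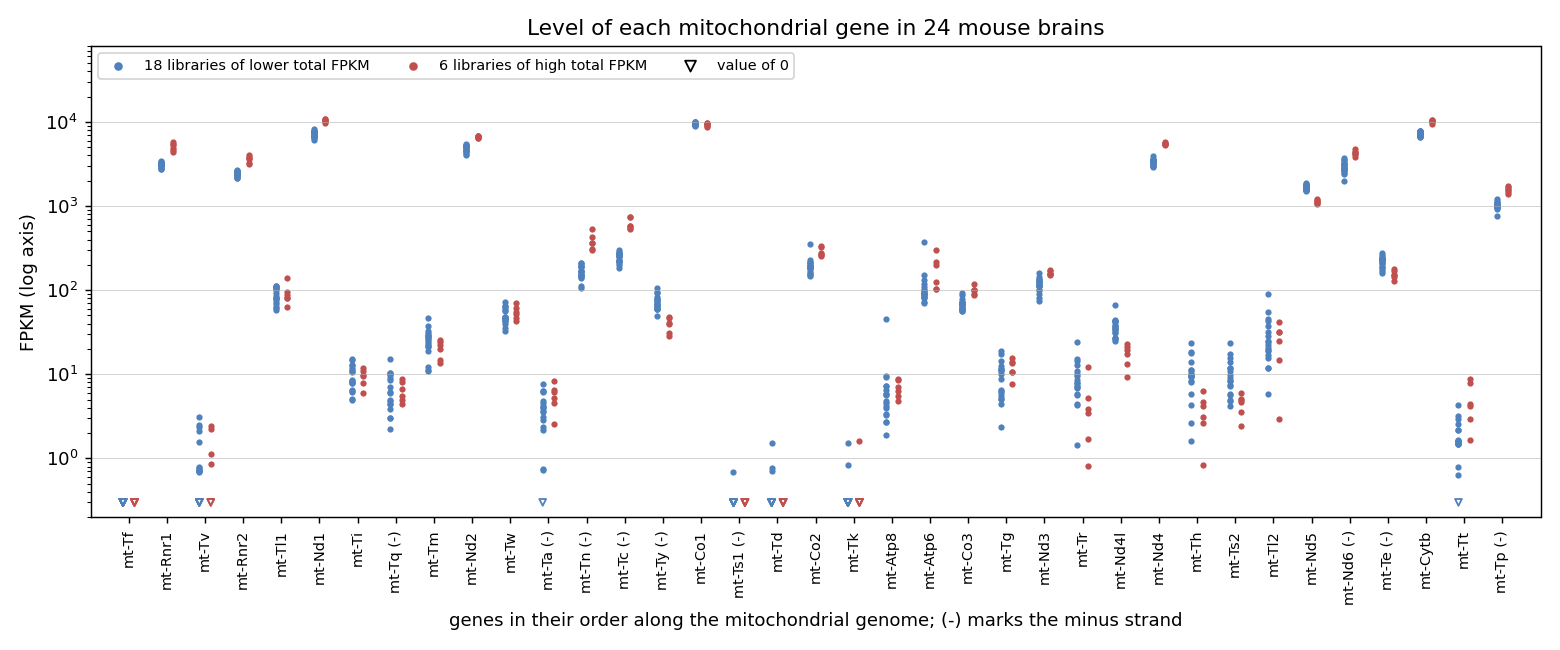
Level of each of the 37 genes (vertical axis, FPKM on a log axis) in their order along the mitochondrial genome, with 1 point per mouse, blue for 18 libraries of lower total FPKM and red for 6 of high total FPKM, and open triangles for values of 0. Levels spanned from 0 for mt-Tf to 10765 FPKM for mt-Nd1 in 1 library.

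The libraries fell into 2 sets by their total FPKM, which the labels do not name. In 6 libraries, vehicle replicates 5 and 6, angiotensin II replicate 5, vehicle + AEC replicate 6 and angiotensin II + AEC replicates 5 and 6, the sum of all FPKM was 338335 to 348597. In the other 18 it was 277116 to 298301, and the same 6 libraries stood apart when the mitochondrial genes were left out of the sum. Mitochondrial genes took 6.17% to 6.85% of fragments in the 6 and 4.79% to 5.75% in the 18. The sets were defined from the data, so their levels are described without a test. Among all 27286 genes that were above 0 in at least 6 mice, 11.2% had all 6 libraries above the other 18 and 16.3% had all 6 below. Of the 33 members among these genes, 10 had all 6 above and 3 had all 6 below. For 5 markers of the choroid plexus, the tissue that makes cerebrospinal fluid, the summed level was 840 to 1129 FPKM in the 6 libraries and 357 to 778 in the 18. Ttr, with a mean of 664 FPKM over all mice, made up most of that sum. Ttr and Folr1 were the 2 of 5 genes above, and the others overlapped. Kcne2 had a higher median in the 6 libraries, at 3.73 against 2.64 FPKM. Kl, at 1.45 against 2.39, and Clic6, at 4.04 against 5.195, had lower ones. Single markers of other types were separated as well: of 5 neuron markers 2 lay above and 2 below, of 4 astrocyte markers 1 above and 2 below, of 4 oligodendrocyte markers 2 above, and of 4 microglia markers 1 above and 1 below. The summed levels of these lists overlapped, as did those of the pituitary and red blood cell markers, of which 0 were separated. All 5 red blood cell markers nonetheless had higher medians in the 6 libraries. Hba-a1 had 63.6 against 23.3 FPKM, Hba-a2 10.7 against 3.20 and Hbb-bs 76.2 against 29.3. Hbb-bt had 11.5 against 3.85 and Alas2 1.285 against 0.569. The part of these lists in the result was not tested.

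Both rRNAs were higher in the 6 libraries. mt-Rnr1 ran from 4385 to 5695 FPKM there and from 2747 to 3385 in the 18, and mt-Rnr2 from 3146 to 4092 against 2164 to 2682. Of the protein genes, mt-Nd1, mt-Nd2, mt-Nd4, mt-Nd6 and mt-Cytb were higher in all 6, with ratios of means of 1.43, 1.37, 1.64, 1.46 and 1.40. mt-Nd5 went the other way at 1062 to 1203 FPKM against 1493 to 1882, a ratio of 0.681. mt-Nd4l was also lower, at 9.39 to 22.7 against 25.1 to 66.1 FPKM. mt-Co1 overlapped between the sets at 8654 to 9827 against 8911 to 10075 FPKM.

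The difference therefore ran in opposite directions between genes of 1 precursor. The ratio of mt-Nd4 to mt-Nd5, next protein gene along the plus strand, was 4.58 to 5.22 in the 6 libraries and 1.75 to 2.38 in the 18. The ratio of mt-Nd4l to mt-Nd4 was 0.00164 to 0.00405 against 0.00745 to 0.0227. The ratio of mt-Co1 to mt-Cytb was 0.876 to 0.968 in the 6 and 1.21 to 1.42 in the 18, whereas that of mt-Nd1 to mt-Cytb overlapped, at 0.986 to 1.04 against 0.937 to 1.05. mt-Rnr1 over mt-Rnr2 was 1.36 to 1.41 against 1.24 to 1.33.

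Among the tRNAs of the minus strand, mt-Tc had 530 to 746 FPKM in the 6 libraries against 183 to 300 in the 18. mt-Tn had 301 to 529 against 106 to 209 FPKM, and mt-Tp 1404 to 1710 against 768 to 1222. mt-Ty begins at position 5260, next to mt-Tc, which ends at 5257, and had 28.8 to 47.8 against 48.8 to 105 FPKM. The ratio of mt-Tc to mt-Ty was thus 11.5 to 20.2 in the 6 libraries and 2.47 to 5.06 in the 18. mt-Te, at 130 to 179 against 158 to 280 FPKM, overlapped. The other 17 tRNAs also overlapped, mt-Tf at 0 in both sets included.

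Of the 10 nuclear copies, 2 had all 6 libraries above the 18 and 2 had all 6 below, beside 11.2% and 16.3% of all genes. Gm28661 was at 287 to 392 FPKM in the 6 libraries and 157 to 235 in the 18, and Gm28438 at 22.3 to 26.1 against 9.09 to 18.02. Gm28439 was lower, at 14.5 to 17.5 against 17.9 to 28.8 FPKM, and so was Gm10222 at 8.999 to 13.7 against 13.7 to 32.6. mt-Nd4, the member that Gm28439 repeats, was higher. Of 35 nuclear genes for mitochondrial transcription, RNA processing and DNA replication, 4 had all 6 libraries above the 18 and 11 had all 6 below. The number above was near the share of all genes, 11.2%, and the share of all genes below was 16.3%. Among these, Lrpprc, whose product stabilizes mitochondrial mRNAs, had a median of 6.00 FPKM in the 6 and 8.19 in the 18. Hsd17b10, a subunit of the enzyme that cuts tRNA 5′ ends, had 30.8 against 19.0. Slirp went the other way from Lrpprc, at 1.19 against 0.737, and Trmt10c the other way from Hsd17b10, at 2.47 against 3.12. Both overlapped between the sets.

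**Figure D3:**
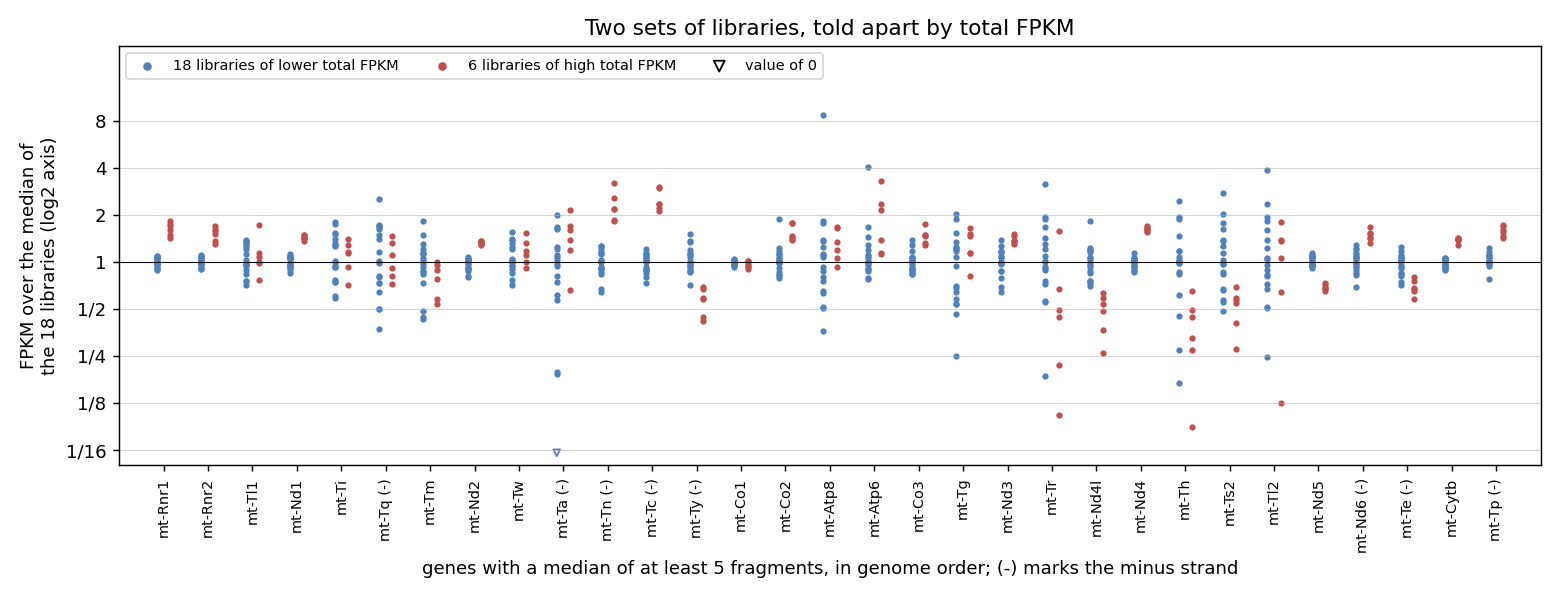
Level of each gene over its median in the 18 libraries (vertical axis, log2 axis), with 1 point per mouse, blue for the 18 libraries of lower total FPKM and red for the 6 of high total FPKM, for the genes with a median of at least 5 fragments. Red points lie above all blue points for 10 genes, among them mt-Tn and mt-Tc, and below them for mt-Ty, mt-Nd4l and mt-Nd5.

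Within the 18 libraries the spread also differed between genes. The coefficient of variation was 3.16% for mt-Co1, 5.79% for mt-Cytb, 6.37% for mt-Rnr1 and 15.0% for mt-Nd6. It was 60.2% for mt-Atp6, where vehicle replicate 1 had 369 FPKM and 4676 fragments beside a median of 91.5 FPKM in the 18. It was 130% for mt-Atp8, where vehicle replicate 3 had 45.3 FPKM and 175 fragments beside a median of 5.24 FPKM. For mt-Co2 it was 23.0%, and angiotensin II replicate 1 had 349.7 FPKM beside a median of 186 FPKM. Adding each copy to its member, as a share of all fragments, left 13.1% for mt-Co2 with Gm28661, 35.2% for mt-Atp6 with Gm10925 and 10.5% for mt-Co3 with Gm28437, which alone had 14.5%. The copy alone had 10.3%, 29.9% and 12.7%, and mt-Nd3 went from 18.7% to 17.5% with Gm28438. As a description over these 18 libraries, which share their totals, member and copy correlated at 0.08, -0.06 and 0.06 for mt-Co2, mt-Atp6 and mt-Co3.

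The groups were compared to see what differed in the brain with angiotensin II and with AEC, within a study of AEC treatment, aortic stiffening and cognition in hypertension. The share of fragments on mitochondrial genes overlapped between all groups. It ran from 5.29% to 6.67% in vehicle mice (median 5.58%), from 4.79% to 6.85% in angiotensin II mice (median 5.59%), from 5.04% to 6.59% with vehicle + AEC (median 5.33%) and from 4.996% to 6.72% with angiotensin II + AEC (median 5.45%). Without the 6 libraries, of which the groups held 2, 1, 1 and 2 in the same order, the medians were 5.55%, 5.56%, 5.21% and 5.26%, and the groups still overlapped. The summed level of 4 pituitary markers reached 1561 FPKM in an angiotensin II mouse. The highest sums were 26.9 FPKM in vehicle, 10.7 in vehicle + AEC and 16.8 in angiotensin II + AEC mice. The part of this in the comparisons was not tested.

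**Figure D4:**
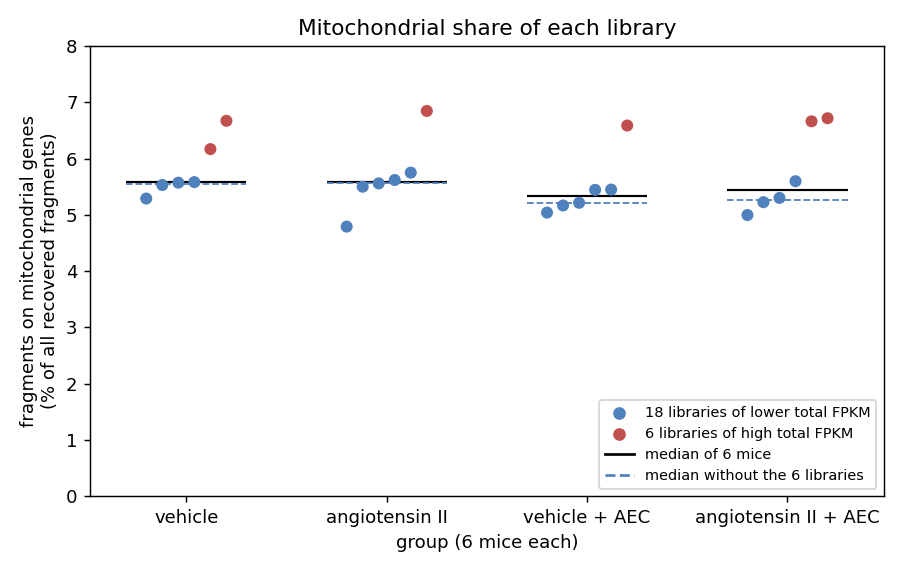
Fragments on mitochondrial genes as a percentage of all recovered fragments (vertical axis) for each mouse in the 4 groups, with red for the 6 libraries of high total FPKM, blue for the other 18, black lines for the median of 6 mice and dashed lines for the median without the 6 libraries. The group medians lie between 5.33% and 5.59%, and the 6 red points lie above all blue points.

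Group differences were then tested gene by gene with limma on log2(FPKM + 0.1), which understates the change of low genes. The 4 members that were above 0 in fewer than 6 mice, mt-Tf, mt-Ts1, mt-Td and mt-Tk, were not tested. No member passed a Benjamini-Hochberg adjusted p of 0.05 in any of the 4 comparisons, nor with voom on recovered fragments. The same held for all 27286 genes, so that the background was 0% in each comparison. The p-values measure the spread between these mice.

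For angiotensin II against vehicle, 0 of 33 members had an unadjusted p under 0.05 with limma and also 0 with voom, beside 2.21% of all genes. The median log2 fold change was -0.07 over the members and 0.02 over all genes, with 10 members higher and 23 lower. With the library set as a term the members' median was -0.0004, with 16 higher and 17 lower, and without angiotensin II replicate 1 it was -0.01, with 14 higher and 19 lower. It was -0.10 in the 18 libraries and also with voom, each with 10 higher and 23 lower. Without angiotensin II replicate 5 it was -0.16, with 11 higher and 22 lower. The 13 protein genes lay between -0.33 and 0.59 on the log2 scale, with standard errors of 0.17 to 0.46, and the 2 rRNAs between -0.09 and -0.07.

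The isoleucine tRNA mt-Ti had the lowest p. It ran from 4.94 to 8.49 FPKM (median 7.81) with angiotensin II and from 6.24 to 11.9 (median 10.8) with vehicle. The groups overlapped, and the log2 fold change was -0.45 ± 0.24 (SE; limma p = 0.0759, adjusted p = 0.994; exact two-sided permutation p = 0.0346). Permutation p-values here and below are of members chosen by their limma p from the same values, and are not adjusted for that choice. mt-Nd4l ran from 19.4 to 66.1 FPKM (median 41.0) with angiotensin II and from 13.2 to 34.5 (median 27.3) with vehicle. Its log2 fold change was 0.59 ± 0.33 (limma p = 0.0921, adjusted p = 0.994; exact permutation p = 0.0974). In the 18 libraries of lower total FPKM it was 0.51, with an unadjusted p of 0.0159. The glycine tRNA mt-Tg was next, at 4.38 to 14.1 FPKM (median 11.3) against 8.79 to 19.0 (median 14.1), with a log2 fold change of -0.57 ± 0.36 (limma p = 0.126, adjusted p = 0.994; exact permutation p = 0.126). Without angiotensin II replicate 1 it was -0.36.

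For angiotensin II + AEC against angiotensin II, 1 of 33 members had an unadjusted p under 0.05, beside 2.54% of all genes. The members' median log2 fold change was -0.03, with 15 higher and 18 lower, and that of all genes was -0.02. With the library set as a term it was -0.06, with 5 higher and 28 lower, in the 18 libraries -0.07, with 9 and 24, and with voom 0.01, with 17 and 16. The protein genes lay between -0.52 and 0.28 and the rRNAs between 0.09 and 0.12. The member with an unadjusted p under 0.05 was mt-Tl1, which ran from 58.7 to 81.3 FPKM (median 70.3) with angiotensin II + AEC and from 72.6 to 109 (median 96.8) with angiotensin II.

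These groups overlapped, and the log2 fold change of mt-Tl1 was -0.41 ± 0.16 (limma p = 0.0171, adjusted p = 1; exact permutation p = 0.0173). It was -0.42 in the 18 libraries. The arginine tRNA mt-Tr ran from 0.823 to 13.04 FPKM (median 5.34) against 4.33 to 15.0 (median 9.46), with a log2 fold change of -1.12 ± 0.59 (limma p = 0.0690, adjusted p = 1; exact permutation p = 0.139). Without angiotensin II + AEC replicate 6 it was -0.69, and in the 18 libraries -0.44. mt-Ti ran from 6.45 to 15.1 FPKM (median 9.66) against 4.94 to 8.49 (median 7.81), and its log2 fold change was 0.42 ± 0.24 (limma p = 0.0950, adjusted p = 1; exact permutation p = 0.0671). This comparison and the one before share the angiotensin II mice.

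For vehicle + AEC against vehicle, 1 of 33 members had an unadjusted p under 0.05, beside 2.41% of all genes. The members' median log2 fold change was -0.14, with 6 higher and 27 lower, and that of all genes was 0.01. With the library set as a term the members' median was -0.06, with 7 higher and 26 lower, and leaving out 1 mouse gave -0.22 to -0.09. In the 18 libraries it was -0.16, with 8 higher and 25 lower. The protein genes lay between -0.90 and 0.26 and the rRNAs between -0.10 and -0.08. mt-Tg was the 1 member, at 2.37 to 11.3 FPKM (median 6.47) with vehicle + AEC and 8.79 to 19.0 (median 14.1) with vehicle.

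The groups overlapped, and the log2 fold change of mt-Tg was -1.05 ± 0.36 (limma p = 0.00763, adjusted p = 0.995; exact permutation p = 0.0108). It rested on 3 to 27 fragments per mouse over all groups. mt-Atp8 ran from 1.88 to 5.78 FPKM (median 4.13) against 2.67 to 45.3 (median 5.60), with a log2 fold change of -0.90 ± 0.46 (limma p = 0.0629, adjusted p = 0.995; exact permutation p = 0.173). Without vehicle replicate 3, which holds the value of 45.3, it was -0.37. The leucine tRNA mt-Tl2 ran from 2.93 to 54.9 FPKM (median 21.6) against 16.8 to 90.9 (median 28.4), with a log2 fold change of -1.04 ± 0.56 (limma p = 0.0743, adjusted p = 0.995; exact permutation p = 0.193). Without vehicle + AEC replicate 6 it was -0.58, and in the 18 libraries -0.56.

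The interaction asks whether the difference made by AEC was another one under angiotensin II than under vehicle. 0 of 33 members had an unadjusted p under 0.05 with limma and 0 with voom, beside 2.54% of all genes. The members' median was 0.17 on the log2 scale, with 23 higher and 10 lower, against -0.03 for all genes. The lowest p were those of mt-Tg at 0.95 ± 0.51 (SE), mt-Atp8 at 1.18 ± 0.65 and mt-Tr at -1.46 ± 0.83. Each had a limma adjusted p of 0.931. Without vehicle replicate 3 the value of mt-Atp8 was 0.65, and in the 18 libraries that of mt-Tr was -0.49. With the library set as a term in the fit, the members' median of the interaction was 0.004, with 18 higher and 15 lower, and in the 18 libraries it was 0.07, with 25 and 8.

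**Figure D5:**
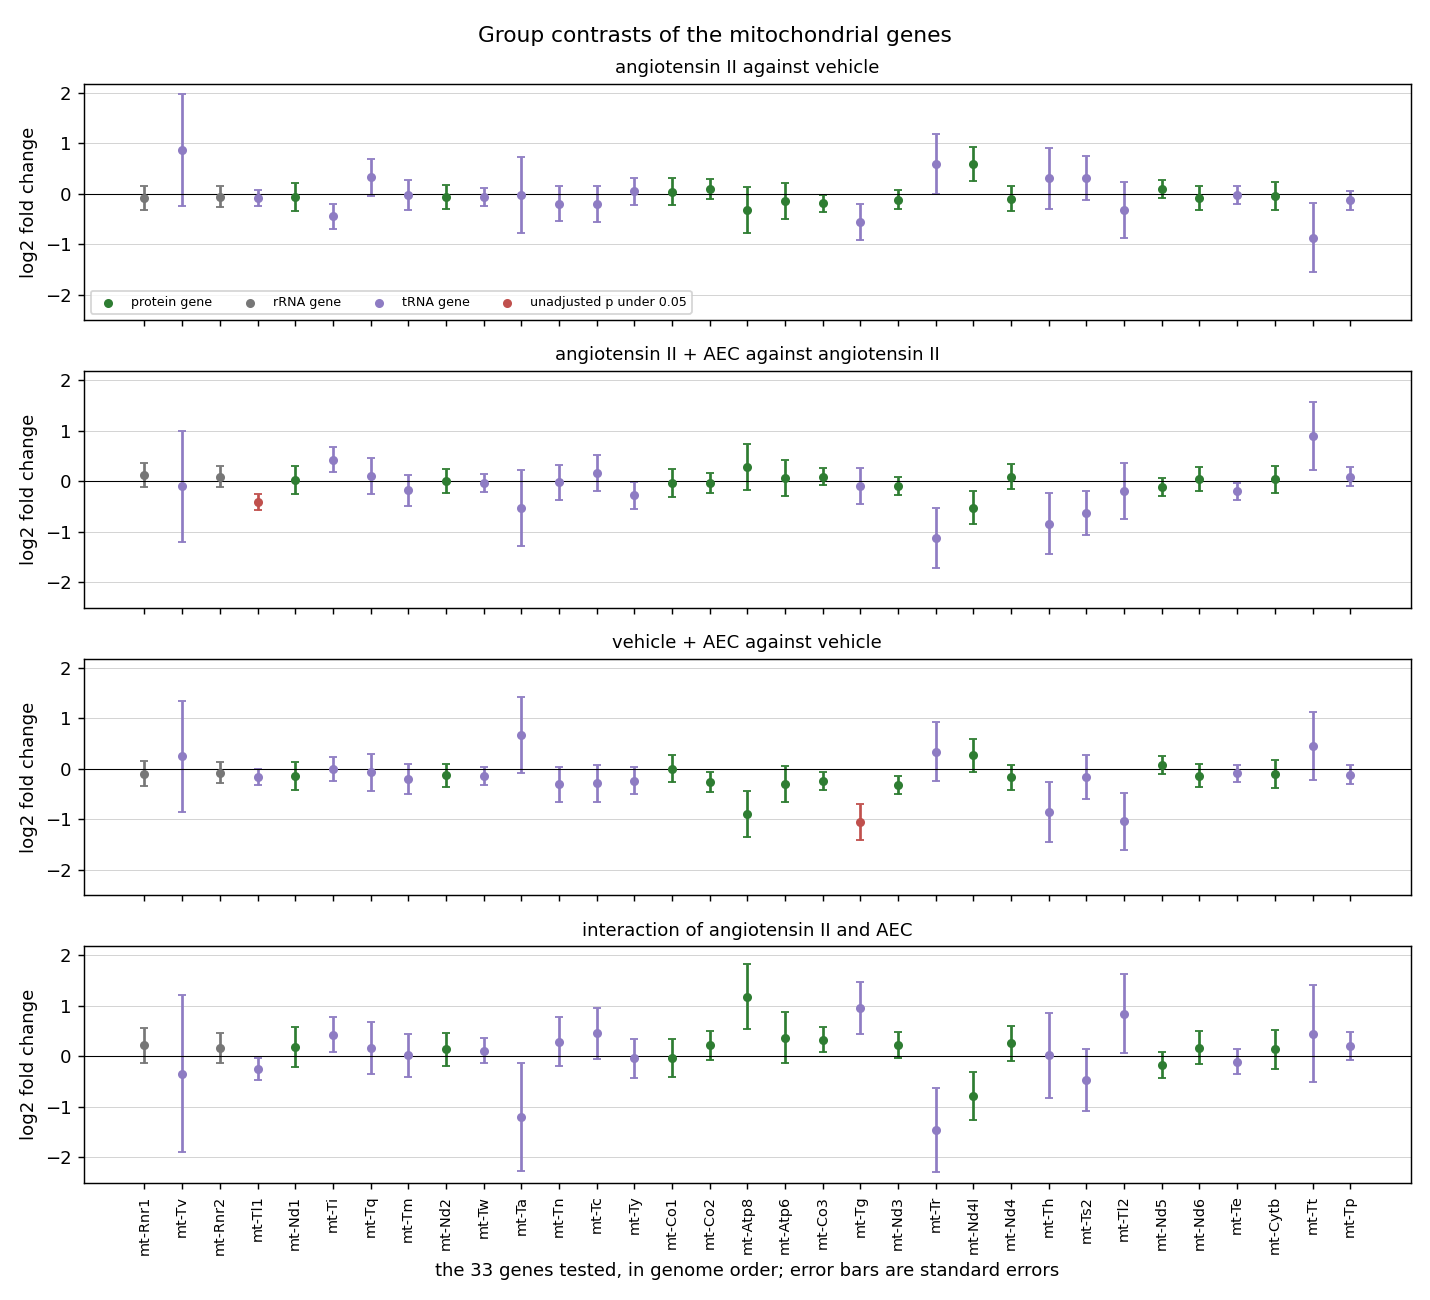
Log2 fold change (vertical axis) of the 33 tested genes in genome order for the 3 group comparisons and the interaction, with standard errors as bars, and green for protein genes, gray for rRNAs, purple for tRNAs and red for an unadjusted p under 0.05. Red points are mt-Tl1 in the second panel and mt-Tg in the third.

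The nuclear genes of mitochondrial gene expression were read from the same fit. Of 36 listed genes, 35 were found and tested, among them Polrmt, the mitochondrial RNA polymerase, and Tfam, which packs mitochondrial DNA and starts its transcription. None had an unadjusted p under 0.05 in any comparison, with limma or with voom, and none passed an adjusted p of 0.05. Their median log2 fold change was -0.003 for angiotensin II against vehicle, -0.02 for angiotensin II + AEC against angiotensin II, -0.0004 for vehicle + AEC against vehicle and -0.03 for the interaction. Of the 10 nuclear copies, 0 had an unadjusted p under 0.05 in the 3 group comparisons and 1, Gm10925, had one in the interaction, with 0 past an adjusted p of 0.05. With voom, Gm10925 also had one in vehicle + AEC against vehicle. Its log2 fold change by limma was 0.64 ± 0.31 in the interaction (SE; adjusted p = 0.931) and -0.44 ± 0.22 in vehicle + AEC against vehicle (adjusted p = 0.995). The copies' median log2 fold changes were 0.02, -0.08, -0.12 and -0.01 in the same order.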

How the data were processed

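Brains of 24 male mice in 4 groups of 6 were grouped by GEO's labels. The authors deposited FPKM per gene, from poly(A)-selected libraries, in build GRCm38 (mm10). DESeq 1.10.1 is named in the submitters' processing notes. The aligner and counter were not given in the sources used here. Fragments were recovered from the steps of the FPKM values (whole within 0.001) and cover counting error only. Genes above 0 in at least 6 mice were tested with limma 3.58.1 (R 4.3.3) on log2(FPKM + 0.1), all groups in 1 fit, with a trend and Benjamini-Hochberg adjustment over 27286 genes. The script was checked on simulated data. Single genes were also tested by exact two-sided permutation, whose smallest p with 6 against 6 is 0.00216. The 3 members with the lowest p per comparison were named, nuclear machinery genes where unadjusted p was under 0.05, and copies of at least 1 FPKM. For the 2 library sets, Lrpprc, Hsd17b10, Slirp and Trmt10c were chosen after their values were seen. The members and lists were chosen with earlier results of these data known. Sequences came from GENCODE M21 transcripts. No 2 mice of a group agreed within sampling noise (chi-square per gene of at least 3.04). Alternatives covered pseudocounts of 1 and 0.01, filters, scaling, voom, library sets, a replicate block and leaving out each mouse.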

Additional observations from a re-analysis of the deposited data

Results flagged for a closer look

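Values were compared with the other mice of their group, and those whose gap to the nearest other mouse, over the group's range, exceeded Dixon's 95% critical value are given here. Of 143 groups of 6 values, 37 held such a value. In 7 of them the 5 other mice were at 0, which fixes the gap at the whole range. Of the 136 groups with at least 2 values above 0, 30 held such a value, or 22.1%, where chance gives about 1 in 20 for values spread normally. Of these 30, 22 came from the 6 libraries of high total FPKM. The 37 genes share their libraries, so these are not separate events.

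In angiotensin II replicate 5, the only library of high total FPKM in its group, mt-Rnr1 was at 4940 FPKM beside a group median of 3271, mt-Rnr2 at 3640 beside 2513, mt-Nd4 at 5514 beside 3516 and mt-Cytb at 10445 beside 7664. mt-Tn was at 528.8 beside 161, mt-Tc at 740.3 beside 254, mt-Atp6 at 299.6 beside 96.2 and mt-Co3 at 117.8 beside 67.6 FPKM.

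In vehicle + AEC replicate 6, again alone in its group, mt-Rnr1 was at 4584 FPKM beside 3283, mt-Nd1 at 10765 beside 6837, mt-Nd2 at 6852 beside 4780, mt-Nd4 at 5529 beside 3249, mt-Nd6 at 4821 beside 2942 and mt-Cytb at 10441 beside 7166. mt-Tn was at 359.5 beside 161, mt-Tc at 581.7 beside 236, mt-Tp at 1710 beside 991, mt-Atp6 at 213.9 beside 94.2 and mt-Co3 at 100.3 beside 65.3 FPKM. The mitochondrial share was 6.586% of fragments beside a median of 5.33%. mt-Tv at 2.265 and mt-Tk at 1.603 FPKM rested on few fragments. In vehicle replicate 5, also a library of high total FPKM, mt-Tt was at 8.687 beside 1.62 FPKM.

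In the other 18 libraries, vehicle replicate 1 stood apart with mt-Atp6 at 369.3 FPKM beside a median of 102, mt-Tr at 24.52 beside 5.40 and mt-Tl2 at 90.9 beside 28.4. Vehicle replicate 3 had mt-Atp8 at 45.33 beside 5.60 FPKM. mt-Co1 was lowest in angiotensin II replicate 1 at 8911 beside 9778 FPKM, and highest in vehicle + AEC replicate 4 at 9884 beside 9362. Angiotensin II replicate 3 had mt-Ts2 at 23.77 beside 8.70, mt-Tv at 3.127 beside 0.750 and mt-Tk at 0.83 beside 0 FPKM.

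The remaining values were of tRNAs listed at 0 in the 5 other mice of the group. mt-Ts1 was at 0.6968 FPKM in vehicle + AEC replicate 2. mt-Td was at 0.7607 in angiotensin II replicate 2, at 1.533 in vehicle + AEC replicate 3 and at 0.7061 in angiotensin II + AEC replicate 2. mt-Tk was at 1.506 FPKM in angiotensin II + AEC replicate 4.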

How the results depend on the processing

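No member passed an adjusted p of 0.05 under any of the alternatives run. No median log2 fold change of the members moved by more than the spread between single mice (1 SD). That limit is wide, since some medians nearly vanished or changed sign within it. With the library set as a term, the median went from 0.17 to 0.004 for the interaction and from -0.07 to -0.0004 for angiotensin II against vehicle. For angiotensin II + AEC against angiotensin II it went from -0.03 to 0.01 with voom. The numbers of members with an unadjusted p under 0.05 also moved. For angiotensin II against vehicle the count went from 0 to 1 with the compared groups alone (mt-Ti), with the replicate block and in the 18 libraries of lower total FPKM (both mt-Nd4l). For angiotensin II + AEC against angiotensin II it went from 1 to 2 with the compared groups alone and to 3 with the replicate block. For vehicle + AEC against vehicle it went from 1 to 3 with the compared groups alone, with the replicate block, with the library set as a term and in the 18 libraries. For the interaction it went from 0 to 3 with the replicate block. The number of all 27286 genes with an unadjusted p under 0.05 moved as well. With the settings in the order given, it went from 604 to 650, 950 and 1053 for angiotensin II against vehicle. For angiotensin II + AEC against angiotensin II it went from 694 to 682 and 993. For vehicle + AEC against vehicle it went from 658 to 657, 1036, 966 and 1140, and for the interaction from 692 to 1416. mt-Tl1 and mt-Tg kept an unadjusted p under 0.05 in their comparison under all of these settings and whichever mouse was left out. The medians of the mitochondrial share with the 13 protein genes alone were 4.86% in vehicle, 4.82% in angiotensin II, 4.55% in vehicle + AEC and 4.74% in angiotensin II + AEC mice. All but the last lay more than 1 SD of the group below the median over all members. Leaving out 1 mouse gave 0 to 2 members for angiotensin II against vehicle, 1 to 2 for angiotensin II + AEC against angiotensin II, 1 to 3 for vehicle + AEC against vehicle and 0 to 3 for the interaction. The largest counts came without angiotensin II replicate 5 in the first (2) and in the interaction (3), and without vehicle + AEC replicate 6 in the third (3), each a library of high total FPKM. The counts over all 27286 genes were then 843, 951 and 1188, in the same order. In the second comparison, a count of 2 came without any 1 of 5 mice, among them angiotensin II replicate 5. Over all genes these fits gave 612 to 887. Replicate numbers were not treated as pairs in the main fit. Of 18 same-numbered pairs, 10 had a correlation over 0.1, and 6 of 24 mice correlated best with their own number. The highest correlations, 0.496, 0.502 and 0.530, were of pairs in which both libraries had high total FPKM. The replicate block and the library set are thus not separate. An edgeR fit was not run, and voom on the fragments recovered from the FPKM values stands in its place. The cause of these shifts was not tested. Few fragments limit several genes, with a median under 50 in 15 of 22 tRNAs and of 22.5 in mt-Atp8.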
